A study of Homo sapiens with 8 samples.

Results

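The activator protein 1 (AP-1) family was followed here through 8 genes listed by name, with earlier results of these data known: FOS, FOSB, FOSL1, FOSL2, JUN, JUNB, JUND and ATF3. They are 8 of the 60725 genes in the deposited table of read counts, and all 8 passed the filter on low counts. The counts come from polyadenylated RNA of HAP1 cells, a near-haploid adherent human line derived from a chronic myeloid leukaemia line. All libraries were made from 1 clone, labelled SC9, which stably expresses catalytically inactive Cas9 joined to BFP and to the KRAB repressor domain from an EF1-a promoter, so that a guide RNA silences the promoter it matches (CRISPR interference). The control group (3 libraries) carried a guide RNA against ADAM22, the NELFE knockdown (3 libraries) a guide RNA against NELFE, and the NELFB knockdown (2 libraries) a guide RNA against NELFB. All groups were transduced with lentivirus, selected with puromycin and harvested 144 h after transduction. A single clone and a single vector for each target limit the model, and no untransduced cells are among these libraries.

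AP-1 is a family of basic leucine zipper transcription factors that bind DNA as pairs. FOS family proteins pair with JUN family proteins and cannot pair with themselves, JUN family proteins can also pair with one another, and ATF3 pairs with several of them. FOS is the textbook immediate early gene, transcribed within minutes of a growth signal from a promoter at which RNA polymerase II waits shortly after the start site, and its mRNA is short-lived. NELF, the negative elongation factor, holds that paused polymerase together with DSIF, and NELFE and NELFB are 2 of its 4 subunits.

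The promoters of the members were read from GRCh38, over 400 bases upstream of the canonical start site of each gene in GENCODE v44, to show which of the elements described for early response promoters they carry. Searched on both strands were the CArG box bound by serum response factor, TGACNTCA (which covers the cyclic AMP response element TGACGTCA), the AP-1 site TGANTCA and the TATA element TATAAA. A CArG box and TATAAA can share letters. Each of the stretches below holds a match in capitals with up to 10 bases of flank, 5′ to 3′ on the strand of the gene.
FOS, CArG box: cacaggatgtCCATATTAGGacatctgcgt
FOSB, CArG box: cggccgagctCCTTATATGGctaattgcgt
FOS, TATAAA: aaacgcttgtTATAAAagcagtggct
FOSB, TATAAA: gtcccgggcaTATAAAtacaggctgg
JUNB, TATAAA: actagcgcggTATAAAggcgtgtggc
ATF3, TATAAA: gcctgagggcTATAAAaggggtgatg
FOSB, TGACNTCA: ggattccctcTGACGTCAttgctaggat
JUN, TGACNTCA: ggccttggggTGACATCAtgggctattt
JUND, TGACNTCA: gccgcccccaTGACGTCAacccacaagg

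The CArG box stretches lie at chr14:75278504-75278533 (FOS, plus strand) and chr19:45467712-45467741 (FOSB, plus strand), where the matches begin 314 and 274 bases upstream of the start sites. The TATA stretches lie at chr14:75278785-75278810 (FOS), chr19:45467956-45467981 (FOSB), chr19:12791445-12791470 (JUNB) and chr1:212608719-212608744 (ATF3), all on the plus strand, with matches that begin 33, 30, 31 and 32 bases upstream. The TGACNTCA stretches lie at chr19:45467661-45467688 (FOSB, plus strand), chr1:58784097-58784124 (JUN, minus strand) and chr19:18281805-18281832 (JUND, minus strand), with matches that begin 325, 67 and 200 bases upstream. A CArG box was found for 2 of the 8 members and for 1.73% of the 16175 tested genes with such a window. TATAAA began within 50 bases of the start site in 4 of the 8 members and in 2.42% of tested genes. TGACNTCA was found for 3 members and 8.22% of tested genes, and TGANTCA for none of the 8 and 6.31% of tested genes. The TGACNTCA matches of FOSB and JUND read TGACGTCA, and that of JUN reads TGACATCA. The absence of TGANTCA concerns those letters only. FOSL1 and FOSL2 held none of these letters in the window. A match describes the sequence and does not show binding.

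The targeted genes were examined first. NELFE, the RNA-binding subunit of the complex, was at 50.6, 49.4 and 47.8 counts per 1000000 counted reads (CPM) in the control libraries, at 2.41, 2.37 and 2.97 CPM in the NELFE knockdown and at 61.3 and 56.5 CPM in the NELFB knockdown. NELFB was at 74.5, 72.7 and 78.7 CPM in control cells, at 63.4, 64.1 and 63.9 CPM in the NELFE knockdown and at 3.07 and 2.76 CPM in the NELFB knockdown. Each knockdown group was low in the target its label names. The fitted log2 fold change was -4.26 ± 0.11 (SE) for NELFE in its knockdown and -4.69 ± 0.11 for NELFB in its own. NELFB was also called lower in the NELFE knockdown, by 0.24 ± 0.07 on the log2 scale (edgeR's quasi-likelihood test, adjusted p = 0.0481). That call was lost without control replicate 2 (0.0941) or 3 (0.146), without NELFE replicate 1 (0.145), 2 (0.135) or 3 (0.0557), without NELFB replicate 1 (0.0775) or 2 (0.0763), with DESeq2 size factors (0.051), with no filter on low counts (0.121), with only the libraries of both groups (0.0684) and without both replicates numbered 3 (0.112). Of the other subunits, NELFA was lower by 0.41 ± 0.08 on the log2 scale in the NELFE knockdown (adjusted p = 0.0108) and had a change of -0.29 in the NELFB knockdown (adjusted p = 0.052), and NELFCD was not called in either knockdown.

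Library totals on genes ran from 22037423 to 24444185 reads. CPM values are scaled to TMM library sizes, and a gene was called where the Benjamini-Hochberg adjusted p of edgeR's test over all tested genes was under 0.05. Control replicate 1 stood apart from control replicates 2 and 3, with a chi-square per degree of freedom of 17.1 and 29.4 over genes, against 5.76 between those. NELFE replicate 3 stood apart from NELFE replicates 1 and 2 (21.1 and 21.4, against 4.25 between those). The NELFB libraries differed by 5.99. Fits without control replicate 1 and NELFE replicate 3 (the libraries that stood apart), and fits without both replicates numbered 3, were added after the data were seen, and the calls they change are given.

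Across both knockdowns together, 5 libraries against 3, the AP-1 members rose or were not called, and none fell. FOS, FOSB, FOSL2, JUNB and JUND were called higher, that is 5 of 8 members, while 13.3% of the 16367 tested genes were called higher and 12.7% lower. JUN, FOSL1 and ATF3 were not called, and their fitted changes were positive too. The median log2 fold change of the members was 0.80, and that of all tested genes was -0.0021. That count rested on each of the control libraries, with 2 members called without control replicate 1, 0 without control replicate 2 and 1 without control replicate 3, and it was 2 with no filter on low counts. Over all genes, 2182 were called higher with all libraries, 2133 without control replicate 1, 1360 without control replicate 2, 1497 without control replicate 3 and 2129 with no filter. Without the libraries that stood apart, and likewise without both replicates numbered 3, 4 of 8 members were called higher, since FOSL2 was lost, and 3278 and 2048 of all genes were. For FOS, FOSB, FOSL1, FOSL2 and JUND all 5 knockdown libraries lay above all 3 control libraries, an arrangement that 14.8% of tested genes shared. In bulk RNA, more cells with a transcript and more transcript in each cell cannot be told apart.

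**Figure D1:**
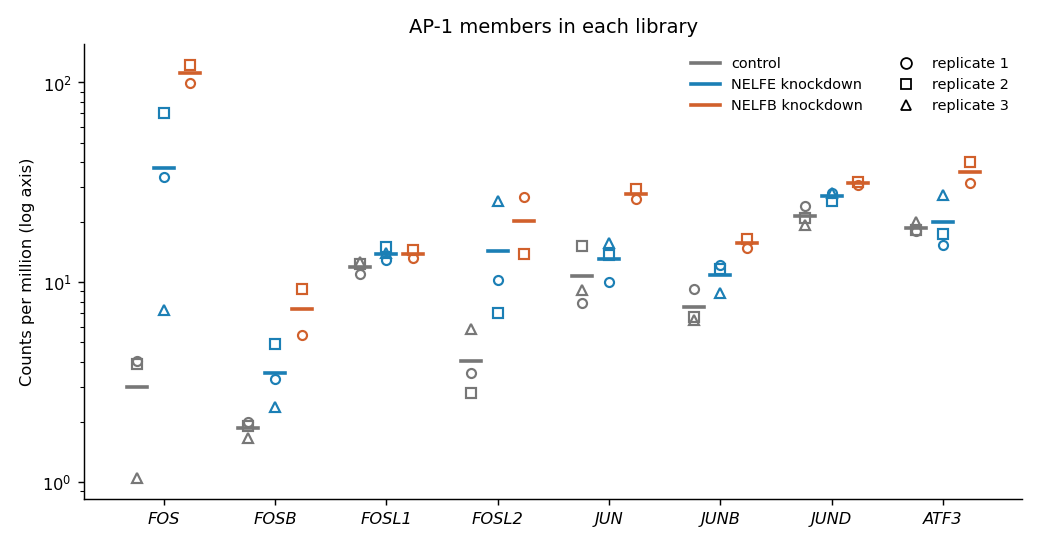
Level of each AP-1 member in each library, in TMM-scaled CPM on a log axis, with the control, NELFE knockdown and NELFB knockdown groups side by side, symbols for replicate numbers and a bar at each group mean. FOS spans 1.04 to 123 CPM over the 8 libraries, and FOSL1 10.9 to 15.0 CPM.

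FOS, the member best known for its rapid induction, had the widest range. Its gene (ENSG00000170345) lies at chr14:75278826-75282230 on the plus strand and has 4 exons. The control libraries held 4.05, 3.90 and 1.04 CPM of FOS. The NELFE libraries held 33.8, 70.4 and 7.25 CPM, and the NELFB libraries 99.2 and 123 CPM. All knockdown libraries were above all control libraries, both NELFB libraries were above the NELFE libraries, and replicate 3 was the lowest of its group in control and NELFE cells. The highest NELFE library exceeded the lowest 9.71 times, so that the spread within that group was large. FOS was 4.47 ± 1.12 higher on the log2 scale in both knockdowns together (adjusted p = 0.0308), 3.62 ± 0.87 in the NELFE knockdown (adjusted p = 0.0374) and 5.20 ± 0.92 in the NELFB knockdown (adjusted p = 0.0113). The call over both knockdowns was lost without control replicate 1, 2 or 3 (adjusted p = 0.0774, 0.0933 and 0.103), NELFE replicate 2 (0.0581) or NELFB replicate 1 (0.0563), while the log2 fold change stayed between 4.07 and 4.75, and with no filter on low counts (0.053). The call in the NELFE knockdown was kept in 1 of 8 fits without 1 library (adjusted p up to 0.149), with a log2 fold change between 2.77 (without NELFE replicate 2) and 4.10, and lost with no filter (0.121), and that in the NELFB knockdown in 7 of 8, with an adjusted p of 0.0659 without control replicate 3.

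FOSB, a FOS relative known for its long-lived splice form in neurons, was at 2.00, 1.91 and 1.65 CPM in control cells. It was at 3.28, 4.92 and 2.37 CPM in the NELFE knockdown and at 5.44 and 9.21 CPM in the NELFB knockdown. The groups did not overlap, and their order was the same as for FOS. FOSB rose by 1.44 ± 0.39 on the log2 scale in both knockdowns together (adjusted p = 0.0201) and by 1.98 ± 0.31 in the NELFB knockdown (adjusted p = 0.00254), a call that was kept in 8 of 8 fits without 1 library. In the NELFE knockdown its change of 0.92 ± 0.30 missed the threshold (adjusted p = 0.0622). It passed without NELFE replicate 3 (0.0207), without the libraries that stood apart (0.0123), without both replicates numbered 3 (0.0365), with no filter (0.00138) and under DESeq2 (0.0228). The joint call was lost without control replicate 1, 2 or 3 (adjusted p = 0.073, 0.0677 and 0.0886) and with no filter (0.122). The gene, at chr19:45467995-45475179 on the plus strand, lies within the span of ERCC1 on the opposite strand, and the counts carry no strand, but the annotated exons of the genes share 0 bases. ERCC1 changed by 0.22 (adjusted p = 0.0672).

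FOSL2, which encodes FRA-2, a FOS relative without the strong activation domain of FOS, was at 3.53, 2.79 and 5.83 CPM in control cells. It reached 10.3, 7.03 and 25.6 CPM in the NELFE knockdown and 26.8 and 13.9 CPM in the NELFB knockdown. All knockdown libraries lay above the control libraries, but here replicate 3 was the highest of the control and of the NELFE libraries, the reverse of FOS, and the knockdown groups overlapped. FOSL2 rose by 2.04 ± 0.51 on the log2 scale in both together (adjusted p = 0.0203), by 1.81 ± 0.47 in the NELFE knockdown (adjusted p = 0.0297) and by 2.33 ± 0.50 in the NELFB knockdown (adjusted p = 0.011). The joint call was lost without control replicate 1, 2 or 3 (adjusted p = 0.102, 0.0794 and 0.0574), without both replicates numbered 3 (0.0906), without the libraries that stood apart (0.155) and with no filter on low counts (0.0854). The call in the NELFE knockdown was kept in 3 of 8 fits without 1 library, with a change of 1.09 and an adjusted p of 0.0508 without NELFE replicate 3, and it was lost without the libraries that stood apart (0.3) and with no filter (0.239). The call in the NELFB knockdown was lost without control replicate 1 (0.0755) or NELFB replicate 1 (0.143) and with no filter (0.135). The gene lies at chr2:28392448-28417317 on the plus strand, and the overlapping FOSL2-AS1 held at most 1 read in a library.

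FOSL1, which encodes FRA-1, often abundant in invasive epithelial tumours, moved little. It was at 10.9, 12.4 and 12.6 CPM in control cells, at 12.9, 15.0 and 13.9 CPM in the NELFE knockdown and at 13.2 and 14.6 CPM in the NELFB knockdown. The knockdown libraries were again above the control libraries, by a narrow margin between 12.6 and 12.9 CPM. Its change of 0.22 ± 0.10 on the log2 scale in both together was not called (adjusted p = 0.127), and it was called in none of the 8 fits without 1 library. Of its neighbours within 5 kb, FIBP on the same strand was called higher in both together, by 0.28 (adjusted p = 0.00813). CCDC85B on the opposite strand changed by -0.31 and was not called (adjusted p = 0.134).

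JUN, the namesake of the family and a target of its own protein, was at 7.90, 15.3 and 9.19 CPM in control cells. It was at 10.0, 13.6 and 15.8 CPM in the NELFE knockdown and at 26.0 and 29.5 CPM in the NELFB knockdown. The control and NELFE libraries overlapped, and the NELFB libraries stood above all others. JUN rose by 1.37 ± 0.25 on the log2 scale in the NELFB knockdown (adjusted p = 0.00548), a call lost only without NELFB replicate 2 (0.0517). The change in the NELFE knockdown was 0.28 ± 0.24 (adjusted p = 0.457), turning to -0.054 without the libraries that stood apart, and that in both together 0.82 ± 0.38 (adjusted p = 0.147). A model of the 3 groups gave the joint change as 0.83 with an adjusted p of 0.0189. The gene has 1 exon in its canonical transcript and lies at chr1:58776845-58784048 on the minus strand.

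JUNB, a JUN relative with weaker activation at many promoters, was at 9.30, 6.70 and 6.44 CPM in control cells. It was at 12.3, 11.7 and 8.83 CPM in the NELFE knockdown and at 14.8 and 16.5 CPM in the NELFB knockdown. NELFE replicate 3 fell within the control range, and the other knockdown libraries were above it. JUNB rose by 0.78 ± 0.20 on the log2 scale in both together (adjusted p = 0.0151) and by 1.07 ± 0.19 in the NELFB knockdown (adjusted p = 0.00472, kept in 8 of 8 fits without 1 library). The joint call was lost without control replicate 2 (0.0696) or 3 (0.0574). In the NELFE knockdown the change was 0.54 ± 0.18 (adjusted p = 0.0633) and was called without control replicate 1 (0.0173) or NELFE replicate 3 (0.0224), without both of these (0.000122), without both replicates numbered 3 (0.0411), with no filter (0.00918) and under DESeq2 (0.0262). JUNB lies at chr19:12791486-12793315 on the plus strand inside the span of HOOK2 on the opposite strand, whose annotated exons cover 259 bases or 14.2% of JUNB. Reads on such bases are counted for neither gene where the annotation used for counting has the same overlap, and HOOK2 changed by 0.08 (adjusted p = 0.696). PRDX2, also within 5 kb on the opposite strand, changed by 0.019 (adjusted p = 0.856).

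JUND, the JUN relative that many resting cells express steadily, was called higher in both knockdowns. It was at 24.2, 20.9 and 19.4 CPM in control cells, at 27.9, 25.5 and 28.1 CPM in the NELFE knockdown and at 30.7 and 31.8 CPM in the NELFB knockdown. The 3 groups did not overlap. JUND rose by 0.42 ± 0.10 on the log2 scale in both together (adjusted p = 0.0105, lost only without control replicate 2, 0.0501), by 0.33 ± 0.10 in the NELFE knockdown (adjusted p = 0.0479) and by 0.54 ± 0.11 in the NELFB knockdown (adjusted p = 0.00823). The call in the NELFE knockdown was kept in 1 of 8 fits without 1 library (adjusted p up to 0.145) and lost without both replicates numbered 3 (0.16), with no filter (0.053) and with only the libraries of both groups (0.0776), and that in the NELFB knockdown was lost without either NELFB library (0.0742 and 0.0683). The gene has 1 exon and lies at chr19:18279694-18281622 on the minus strand.

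ATF3, a stress-induced factor that pairs with JUN proteins and often represses, was at 18.0, 18.3 and 19.98 CPM in control cells. It was at 15.4, 17.5 and 27.4 CPM in the NELFE knockdown and at 31.3 and 39.9 CPM in the NELFB knockdown. NELFE replicates 1 and 2 lay below all control libraries and NELFE replicate 3 above them. In the NELFE knockdown the change of 0.10 ± 0.19 was not called (adjusted p = 0.782) and turned to -0.19 without NELFE replicate 3, -0.23 without the libraries that stood apart and -0.15 without both replicates numbered 3. In the NELFB knockdown ATF3 rose by 0.92 ± 0.21 (adjusted p = 0.0133), a call lost without NELFB replicate 1 (0.0592) or 2 (0.124). The change in both together was 0.49 ± 0.28 (adjusted p = 0.235), and it ranged from 0.29 to 0.63 when 1 library was left out. The gene spans chr1:212565334-212620777 on the plus strand.

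**Figure D2:**
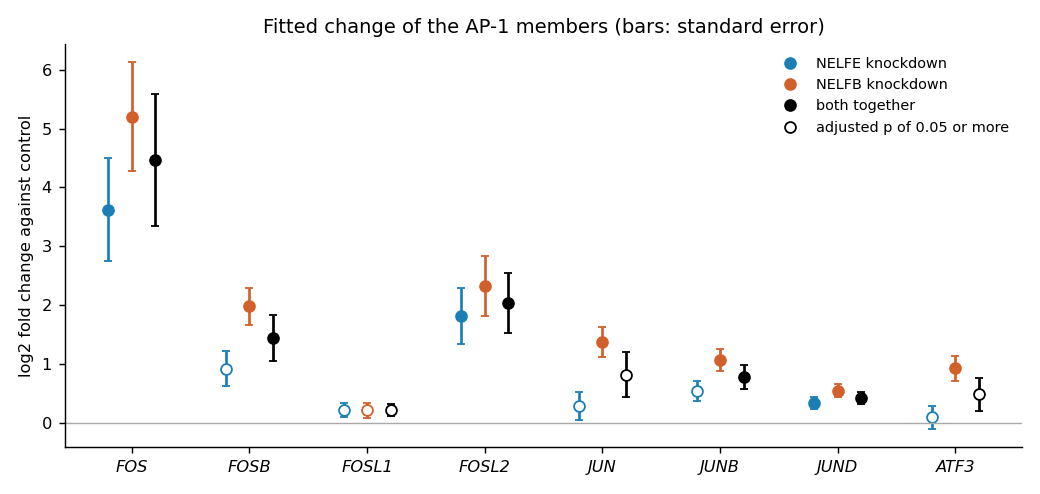
Fitted log2 fold change of each AP-1 member against control with its standard error, for the NELFE knockdown, the NELFB knockdown and both together, with open circles where the adjusted p was 0.05 or more. The estimate for the NELFB knockdown is the higher of the pair for 7 members, and both lie at 0.22 for FOSL1.

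Taken by knockdown, 3 of 8 members (FOS, FOSL2 and JUND) were called higher in the NELFE knockdown, where 7.92% of 16852 tested genes were called higher and 7.04% lower. In the NELFB knockdown 7 of 8 members were called higher, all but FOSL1, where 10.6% of tested genes were called higher and 8.88% lower. The median log2 fold change of the members was 0.44 in the NELFE knockdown and 1.22 in the NELFB knockdown, beside -0.0052 and -0.0034 for all tested genes. In the NELFE knockdown 0 members were called without control replicate 2, control replicate 3 or NELFE replicate 1, 1 without NELFE replicate 2 or either NELFB library, and 5 under DESeq2. Of all genes, 1334 were called higher there with all libraries, 659 without control replicate 2, 926 without control replicate 3, 561 without NELFE replicate 1, 647 without NELFE replicate 2, 918 and 928 without NELFB replicate 1 or 2, and 1444 under DESeq2. In the NELFB knockdown 4 were called without either NELFB library, when the number of all genes called higher there went from 1793 to 380 without NELFB replicate 1 and to 769 without NELFB replicate 2. The comparisons share their control libraries. Both NELFB libraries exceeded the other 6 libraries for 6 of 8 members (FOS, FOSB, JUN, JUNB, JUND and ATF3), an arrangement that 7.36% of tested genes shared.

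A direct test of the NELFE against the NELFB knockdown called none of the 8 members, where 0.315% of tested genes were called in either direction. At an unadjusted p under 0.05, 4 of the 8 members and 863 of 16852 genes passed in edgeR's test, and DESeq2 called 2 members, JUN and ATF3, and over all genes 54 higher and 36 lower where edgeR called 40 and 13. The fitted differences of the NELFE minus the NELFB knockdown were -1.58 ± 0.77 for FOS, -1.06 ± 0.30 for FOSB, -1.08 ± 0.25 for JUN, -0.83 ± 0.21 for ATF3, -0.52 ± 0.19 for JUNB and -0.52 ± 0.48 for FOSL2 on the log2 scale. For JUND the difference was -0.21 ± 0.11. That for FOSL2 ranged from -1.24 to 0.045 when 1 library was left out, so its direction was not stable. The difference for FOS ranged from -2.43 (without NELFE replicate 2) to -1.10 (without NELFE replicate 3) when 1 library was left out, and that for FOSB from -1.38 (without NELFB replicate 1) to -0.62 (without NELFB replicate 2). The adjusted p ranged from 0.233 for JUN to 1 for FOSL1, whose difference was -0.00012 ± 0.13. Without NELFE replicate 3, ATF3 passed the threshold with a difference of -1.12 (adjusted p = 0.00416), as it did without both replicates numbered 3 (0.00126) and without the libraries that stood apart (6.21e-05). With no filter on low counts, edgeR called FOSB (adjusted p = 0.00129), JUN (1.39e-09) and ATF3 (6.08e-07), all with the NELFE knockdown below that of NELFB, and the calls over all genes rose as well, from 13 to 95 lower and from 40 to 66 higher. The call of a difference between the knockdowns thus depended on the setting, and JUNB was not called under the alternatives run.

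To compare levels between genes, counts were divided by exon length and scaled to a sum of 1000000 in each library (TPM). In control cells JUND was the most abundant member at 45.7 ± 5.69 TPM (SD, n = 3), followed by FOSL1 at 26.0 ± 1.69, ATF3 at 19.2 ± 0.879, JUNB at 16.8 ± 3.73 and JUN at 12.2 ± 4.44. FOS was at 3.87 ± 2.21 TPM, FOSL2 at 2.31 ± 0.881 and FOSB at 1.37 ± 0.148. The libraries of ATF3 and JUNB overlapped, as did those of JUNB and JUN, of FOS and FOSL2 and of FOS and FOSB, so their order is not resolved. In the NELFB knockdown FOS led at 145 ± 22.7 TPM (SD, n = 2), followed by JUND at 67.3 ± 2.05 TPM. In the NELFE knockdown JUND was at 58.5 ± 2.89 TPM and FOS at 49.2 ± 42.2 TPM (SD, n = 3), with FOS above JUND in NELFE replicate 2 alone.

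The summed TPM of the 8 members was 134, 130 and 118 in the control libraries, 201, 252 and 177 in the NELFE libraries and 339 and 390 in the NELFB libraries. The groups did not overlap, and NELFE replicate 3 was the lowest knockdown library. FOS made up 3.94, 3.85 and 1.12% of this sum in control cells, 22.5, 37.0 and 5.14% in the NELFE libraries and 38.02 and 41.2% in the NELFB libraries. The ratio of summed FOS family to summed JUN family TPM was 0.400, 0.455 and 0.503 in control cells, 0.814, 1.36 and 0.576 in the NELFE libraries and 1.37 and 1.48 in the NELFB libraries. By these exon lengths, JUN family TPM exceeded FOS family TPM in all control libraries and in NELFE replicates 1 and 3, and was lower in the other 3 libraries. Other transcript lengths were not tried and could change this order where the families lie close. Shares of a sum move together, and the JUN family itself was at 74.7 ± 8.55 TPM in control cells, 98.5 ± 3.55 in the NELFE knockdown and 135 ± 7.99 in the NELFB knockdown. JUND made up 35.8 ± 2.69% of the sum in control cells and 18.6 ± 1.29% in the NELFB knockdown, where its own level was higher. These shares are descriptions of mRNA, with exon lengths from a later annotation than the counts, and protein pairs were not measured.

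**Figure D3:**
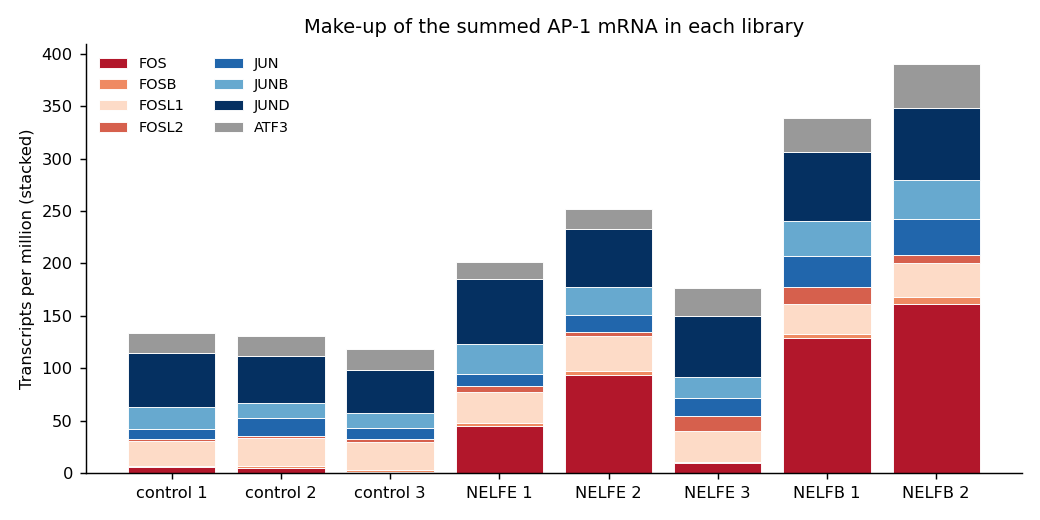
TPM of the 8 AP-1 members stacked for each library, with FOS family members in red tones, JUN family members in blue tones and ATF3 in grey. The sum rises from 118 to 134 in control libraries to 339 and 390 in NELFB libraries, and FOS makes the largest part of the added height in NELFE replicates 1 and 2 and both NELFB replicates.

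Over the 8 libraries, FOS followed FOSB and JUNB most closely among the members (Pearson r of log2 CPM 0.947 for each), then JUND (0.854), and was furthest from ATF3 (0.448). JUN and ATF3 followed each other at 0.854. JUNB and JUND did at 0.918. These values describe 8 libraries that share the contrast of knockdown and control, and carry no test. Outside the family, 12785 genes reached a mean log2 CPM of 1, and of these EXOC4 (r = 0.995), ROBO2 (0.994), STX16-NPEPL1 (0.993), SLC44A5 (0.987) and ALDH5A1 (0.987) were most like FOS. Their range was narrower, with ROBO2, an axon guidance receptor, at 28.0, 27.0 and 21.8 CPM in control cells, 50.1, 55.4 and 30.4 in the NELFE libraries and 58.6 and 61.8 in the NELFB libraries. ROBO2 had FOS's low values in replicate 3 as well, as its choice by likeness to FOS implies. The genes most like JUN were PPP1R12A (r = 0.968), PKIG (0.957), GOLM2 (0.940), IL6ST (0.938) and LIF (0.936). LIF, a cytokine, shared JUN's high value in control replicate 2, at 4.13, 8.07 and 4.40 CPM in control cells, and was likewise chosen by its likeness to JUN. STX16-NPEPL1 is a read-through gene that shares exons with its neighbours, which makes its counts uncertain.

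The kinases and factors upstream of the members were called in both directions, and their counts are read beside the 13.3% of all tested genes called higher and the 12.7% called lower. Of the 17 genes listed for the ERK arm and the ternary complex factors that bind at the CArG box, 0 were called higher and 1 lower in both knockdowns together, with a median log2 fold change of -0.036. RPS6KA4, a kinase of CREB and histone H3, was lower by 0.35 ± 0.10 on the log2 scale (adjusted p = 0.0246), a call lost without control replicate 3 (0.111), NELFE replicate 2 (0.0569) or NELFB replicate 1 (0.0593). Of 14 genes of the JNK and p38 arm, 2 were higher and 2 lower in both knockdowns together, which is near those shares in each direction. In the NELFB knockdown 2 were higher and 4 lower, where 10.6% and 8.88% of tested genes were, and the 4 were MAP2K6, MAP2K7, MAP3K5 and MAPK9. The last 2 of these, kinases of the JNK and p38 cascades, were named after their values were seen. MAP3K5 was lower there by 0.71 ± 0.10 on the log2 scale (adjusted p = 0.0016, called in all 8 fits without 1 library). MAPK9 was lower by 0.40 ± 0.11 (adjusted p = 0.0277, lost at between 0.0684 and 0.188 without control replicate 2 or 3 or either NELFB library). The NELFB calls of MAP2K6 and MAP2K7 were lost without NELFB replicate 1 (0.0989 and 0.275), that of MAP2K6 also without NELFB replicate 2 (0.0816), and that of MAP2K7 also without control replicate 2 (0.0844) or 3 (0.0614). MAPK10, the JNK isoform best known from neurons, rose by 2.17 ± 0.43 (adjusted p = 0.00519). It was at 1.08, 1.15 and 0.392 CPM in control cells, 3.74, 3.32 and 1.72 in the NELFE and 6.35 and 4.59 CPM in the NELFB knockdown. Its groups did not overlap, and the share of tested genes with that arrangement was not counted. With 27, 26 and 9 control reads, it passed the joint filter on low counts only with the help of the knockdown libraries. Its joint call and the joint count of 2 higher are therefore not independent of that selection. MAPK8, which encodes JNK1, rose by 0.31 ± 0.07 (adjusted p = 0.0093). MAP2K6, a p38 activator, was lower by 0.74 ± 0.13 (adjusted p = 0.00261), and MAP2K7, a JNK activator, by 0.38 ± 0.08 (adjusted p = 0.00556). In the joint comparison the calls of MAPK10, MAPK8, MAP2K6 and MAP2K7 held in all 8 fits without 1 library. Kinase activity was not measured.

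Of 11 other basic leucine zipper genes that can pair with AP-1 proteins, 8 were tested, 1 was higher and 1 lower, also near the shares of all genes. MAF, a large MAF factor of lens and lymphoid cells, rose by 1.61 ± 0.18 on the log2 scale (adjusted p = 0.000208), from 7.98, 9.001 and 6.97 CPM in control cells to between 16.2 and 29.7 CPM in the knockdown libraries. JDP2, which pairs with JUN proteins and represses, was lower by 1.17 ± 0.17 (adjusted p = 0.000857). It was at 15.7, 14.6 and 17.6 CPM in control cells, at 7.19, 5.05 and 8.50 CPM in the NELFE knockdown and at 8.84 and 6.03 CPM in the NELFB knockdown, so that all knockdown libraries were below all control libraries. How many tested genes shared that arrangement was not counted. No other zipper gene of that list or of the 8 members was called lower.

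Of 11 genes known to limit AP-1, all tested, 3 were higher and 0 lower, beside 13.3% and 12.7% of all tested genes. ZFP36L1, which encodes a protein that binds AU-rich elements and speeds mRNA decay, rose by 1.23 ± 0.18 on the log2 scale (adjusted p = 0.00126), with 33.6, 27.6 and 29.0 CPM in control cells, 60.3, 60.3 and 53.9 in the NELFE libraries and 86.9 and 91.8 in the NELFB libraries. It is also the one AP-1 limiter that differed between the knockdowns, by -0.62 ± 0.10 for NELFE minus NELFB (adjusted p = 0.031), which was lost without control replicate 2 (0.0629), NELFE replicate 1 or 2 (0.107 and 0.112) or NELFB replicate 1 or 2 (0.305 and 0.428). ZFP36, of the same family, rose by 0.79 ± 0.21 (adjusted p = 0.0199, lost without control replicate 2 at 0.093 or 3 at 0.055 and without both replicates numbered 3 at 0.0509), and FBXW7, part of the ubiquitin ligase that marks JUN, by 0.32 ± 0.08 (adjusted p = 0.0117). The AU-rich core ATTTA occurs 5 times in the 809 bases of the annotated FOS 3′ UTR, or 6.18 times per kb, a density above that of 95.3% of 12562 tested genes with a 3′ UTR of at least 100 bases. JUNB holds 3.98 per kb (above 84.1% of genes), and the other 6 members between 1.19 and 2.45, where the median gene holds 1.78. The DUSP phosphatases DUSP1, DUSP5 and DUSP6 were not called in the joint comparison. DUSP1 was called higher in the NELFB knockdown, by 0.53 ± 0.15 (adjusted p = 0.0319), which was lost without control replicate 3 (0.0875), NELFE replicate 1 (0.0507), NELFB replicate 1 (0.159) or 2 (0.167), without both replicates numbered 3 (0.0605) and with only the libraries of both groups (0.0509).

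Many textbook targets of AP-1 had almost no reads in these cells. Of 23 listed targets, 11 had at most 3 reads in each library, among them MMP1, MMP3, MMP10, MMP13, CXCL8 and CSF2, and 11 were tested, of which 2 were higher and 1 lower, near the 13.3% and 12.7% of all tested genes. CD44, a hyaluronan receptor, rose by 2.42 ± 0.47 on the log2 scale (adjusted p = 0.0046, and 0.058 without the libraries that stood apart), from 0.681, 0.754 and 0.566 CPM in control cells to between 1.38 and 5.44 CPM in the knockdown libraries. CCND1, the G1 cyclin D1, rose by 1.86 ± 0.32 (adjusted p = 0.00278), from 4.77, 4.74 and 4.92 CPM to 19.9, 13.2 and 26.1 in the NELFE and 19.4 and 8.58 in the NELFB knockdown. PLAUR, the urokinase receptor, was lower by 0.68 ± 0.19 (adjusted p = 0.025), lost without control replicate 1 (0.0906), NELFE replicate 1 (0.0578) or 2 (0.0521), or NELFB replicate 1 (0.0531). The median log2 fold change of the 11 tested targets was 0.27.

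**Figure D4:**
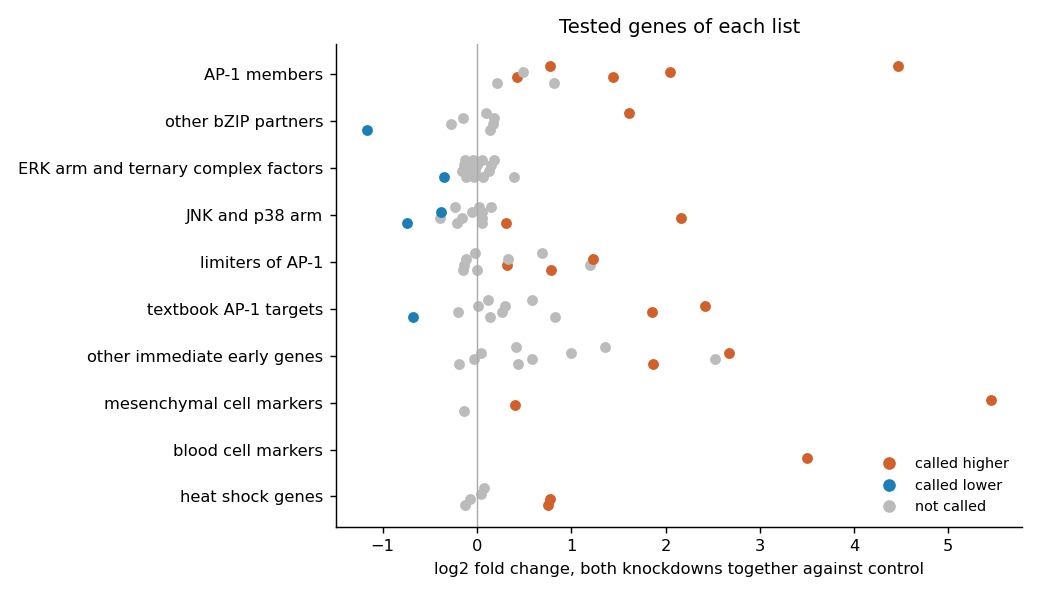
Fitted log2 fold change in both knockdowns together for the tested genes of each list, 1 point per gene, in orange where called higher, blue where called lower and grey where not called, with vertical offsets within a list for legibility only. FOS lies at 4.47 and the other members between 0.22 and 2.04, while the 17 genes of the ERK arm lie between -0.35 and 0.40.

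Of 11 other immediate early genes, 2 were higher and 0 lower in both knockdowns together (13.3% and 12.7% of all tested genes), 3 were higher in the NELFE knockdown (7.92% of tested genes) and 5 in the NELFB knockdown (10.6%). CCN2, which encodes a matricellular growth factor, rose by 2.68 ± 0.50 on the log2 scale (adjusted p = 0.00801, with 0.0501 without control replicate 3, 0.0849 without both replicates numbered 3 and 0.0774 without the libraries that stood apart), and EGR3, a zinc finger factor, by 1.87 ± 0.39 (adjusted p = 0.00705, with 0.0501 without control replicate 1 and 0.0605 with no filter). EGR1, named here after its values were seen because it is induced with FOS in many cells, was at 18.7, 60.1 and 9.32 CPM in control cells, 60.5, 195 and 23.8 in the NELFE libraries and 207 and 357 in the NELFB libraries. Its control and NELFE libraries overlapped, replicate 3 was again the lowest of both groups, and its change of 2.52 ± 1.09 was not called (adjusted p = 0.144). CCN1, a matricellular relative of CCN2 and the most abundant gene of the list, was named for that reason, at 90.1, 142 and 183 CPM in control cells, 215, 199.6 and 358 in the NELFE libraries and 529 and 471 in the NELFB libraries. It was not called in the joint comparison (adjusted p = 0.0533) and was called higher in the NELFB knockdown, by 1.85 ± 0.28 (adjusted p = 0.0023). Its call in the NELFE knockdown, at 0.89 ± 0.26 (adjusted p = 0.044), was lost in 7 of 8 fits without 1 library, all but that without control replicate 3. NR4A1, NR4A2 and IER5 had joint changes of -0.033, -0.19 and 0.044 and were not called. Summed over the 11 genes, of which CCN1 and EGR1 made up the larger part in both NELFB libraries, the level was 206, 291 and 277 CPM in control cells, 379, 512 and 501 in the NELFE libraries and 897 and 1001 in the NELFB libraries.

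Markers of other cell types and of stress were measured beside these results. Of 7 blood cell markers, 5 had at most 3 reads in each library, and HBG1 and MPO had 0, although the parent line of HAP1 was leukaemic. CD34 had 3, 3 and 1 reads in the control libraries, 16, 6 and 28 in the NELFE libraries and 67 and 21 in the NELFB libraries, a ratio of pooled CPM of 11.9 (exact 95% interval 5.64 to 30.2, counting error only). Its joint call in edgeR's test (adjusted p = 0.0142) was lost without control replicate 1 (0.061) or 3 (0.0692), with no filter (0.0973), without both replicates numbered 3 (0.11) and without the libraries that stood apart (0.137). With so few control reads, CD34 passed the filter on low counts only through the knockdown libraries. That call is therefore not independent of the selection. The summed blood marker level was 0.2004, 0.399 and 0.218 CPM in control cells and between 0.475 and 2.87 CPM in the knockdown libraries. CD34 was the most abundant marker in the knockdown libraries. In control cells the mean of CD33 was 0.13 CPM and that of CD34 0.099 CPM. CD33 had 1, 5 and 3 reads in the control libraries, 0, 2 and 3 in the NELFE libraries and 0 and 2 in the NELFB libraries. Of 10 mesenchymal markers, DCN, LUM and FAP had 0 reads, and PDGFRA was the most abundant. Of the 3 that were tested, 2 were called higher, where 13.3% of all tested genes were. COL1A1 was not called, with a change of -0.13 ± 0.19 on the log2 scale. COL3A1 had 5, 7 and 5 reads in the control libraries and passed the filter on low counts only through the knockdown libraries. Its call and the count of 2 are therefore not independent of that selection. The sum of the 10 was 148, 153 and 138 CPM in control cells, 206, 197 and 164 in the NELFE libraries and 215 and 193 in the NELFB libraries, with COL3A1 higher by 5.45 ± 1.12 on the log2 scale (adjusted p = 0.0118, between 0.0502 and 0.0714 without a control library, 0.0789 without both replicates numbered 3 and 0.0691 without the libraries that stood apart) and PDGFRA by 0.40 ± 0.09 (adjusted p = 0.00688). Of 6 heat shock genes, HSPA1A and HSPA1B were called higher, by 0.75 ± 0.14 (adjusted p = 0.004) and 0.77 ± 0.12 (adjusted p = 0.00124), where 13.3% of all tested genes were, and the other 4 had changes between -0.12 and 0.072 and were not called. The sum of the 6 was highest in the replicates numbered 3, at 1164 CPM in control and 1225 CPM in NELFE cells. Reads on mitochondrial genes made up 4.62, 3.72 and 3.48% of control libraries, 4.26, 4.47 and 4.36% of NELFE libraries and 4.81 and 5.01% of NELFB libraries. The part of these markers in the results for AP-1 was not tested.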

How the data were processed

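Polyadenylated RNA of 8 HAP1 libraries was sequenced by the authors as single-end reads of 65 bases. The deposited values are raw counts per gene, made by the authors with STAR 2.5.4a on GRCh38 with Gencode v24; FastQC 0.11.6 is also named in the submitters' processing notes. Strand was not used. STAR counts a uniquely aligned read only where it overlaps exons of 1 gene. The study's methods describe independent biological replicates. Symbols, coordinates and exon lengths came from GENCODE v44 by Ensembl identifier (97.35% of genes with reads, 99.88% of counts). CPM and TPM were computed from the counts.

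Tests used the robust quasi-likelihood fit of edgeR 4.0.16 (R 4.3.3) after filterByExpr and TMM scaling, with Benjamini-Hochberg adjustment over all tested genes: 5 knockdown against 3 control libraries, and 1 model of the 3 groups for the other comparisons. Named are the 8 members, the NELF subunits and, for each list, up to 3 largest increases and 2 largest decreases among genes called jointly. Also named are the 5 genes most like FOS and JUN, the tested neighbours within 5 kb, and FOSL2-AS1. Other listed genes, such as those not called or with almost no reads, were named after their values were seen. Members and lists were chosen with earlier results of these data known. Some listed genes are not reported here and were left out of the list counts and medians. Alternatives were DESeq2 1.42.0, its size factors, other count filters, a prior count of 2, a replicate block, only the libraries compared, each library left out, and 2 pairs of libraries left out, the last chosen after seeing the data. Intervals cover counting error only, and no molecular identifiers were used.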

Additional observations from a re-analysis of the deposited data

Results flagged for a closer look

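Among the genes of the lists, 3 differed between the NELFE and the NELFB knockdown in the direct test of edgeR. These were the targets themselves, with a log2 difference (NELFE minus NELFB) of 4.44 for NELFB and -4.52 for NELFE, and ZFP36L1 with -0.62 (adjusted p = 0.031). ZFP36L1 was higher in both NELFB libraries than in all 3 NELFE libraries, and its call was lost without control replicate 2 (adjusted p = 0.0629), NELFE replicate 1 (0.107) or 2 (0.112), or NELFB replicate 1 (0.305) or 2 (0.428). None of the 8 AP-1 members met this threshold.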

How the results depend on the processing

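The number of AP-1 members called higher in both knockdowns together was 5, and it was 4 to 6 under 8 other alternatives, 2 with no filter on low counts, and 0 to 5 when 1 library was left out. In the NELFE knockdown it was 3, rose to 5 under DESeq2 and under the replicate block, and ranged from 0 to 3 when 1 library was left out. In the NELFB knockdown it was 7, and 4 to 7 when 1 library was left out. For NELFE against NELFB, 0 members were called lower, with 3 under no filter on low counts, 4 under the replicate block (FOS, FOSL2, JUN and ATF3), 2 under DESeq2, 1 without both replicates numbered 3 and 1 without control replicate 1 and NELFE replicate 3, alternatives chosen after seeing the data, and 0 to 1 when 1 library was left out. The causes were not tested. No member was called in the opposite direction under the alternatives run.

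Replicate numbers were not treated as pairs in the main tests. Same-numbered deviations from the group means correlated at 0.275, 0.054 and 0.451 between control and NELFE libraries. Differently numbered ones there ran from -0.377 to 0.231. Same-numbered ones correlated at -0.021 and -0.013 between control and NELFB libraries, and at 0.103 and 0.199 between NELFE and NELFB libraries. The labels do not say whether the numbers mark shared batches, and these values do not settle it. The replicate block result is given only here. JUN in the NELFE knockdown turned to -0.054 without control replicate 1 and NELFE replicate 3, and ranged from 0.099 to 0.62 when 1 library was left out. ATF3 there turned to -0.15 without both replicates numbered 3 and to -0.23 without control replicate 1 and NELFE replicate 3, and ranged from -0.19 to 0.26 when 1 library was left out. FOSL1 for NELFE against NELFB turned to 0.0084 with DESeq2 size factors, 0.0085 with no filter, 0.011 under DESeq2, 0.0055 without both replicates numbered 3 and 0.011 with only those libraries, and ranged from -0.061 to 0.078 when 1 library was left out, all within its standard error of 0.13. FOSL2 in that comparison ranged from -1.24 to 0.045. Over all genes, calls of the joint comparison ranged from 1360 to 2526 higher and 1328 to 2599 lower without 1 library, those of the NELFE knockdown from 561 to 1620 higher and 429 to 1503 lower, and those of the NELFB knockdown from 380 to 2218 higher and 223 to 2098 lower, and those of NELFE against NELFB from 24 to 47 higher and 2 to 34 lower. Genes called lower in that last comparison went from 13 to 95 with no filter, 126 under the replicate block, 36 under DESeq2, 82 without both replicates numbered 3 and 179 without control replicate 1 and NELFE replicate 3, and to 8 with at least 10 counts in every library and 8 with only the libraries compared, and those called higher from 40 to 66 with no filter, 69 under the replicate block and 117 without control replicate 1 and NELFE replicate 3. The replicate block gave 2408 higher and 2355 lower in the NELFE knockdown in place of 1334 and 1186, and 2312 lower in the NELFB knockdown in place of 1497. Without control replicate 1 and NELFE replicate 3, 3278 genes were called higher and 3347 lower in the joint comparison in place of 2182 and 2073, 2922 and 3058 in the NELFE knockdown in place of 1334 and 1186, and 3506 and 3382 in the NELFB knockdown in place of 1793 and 1497. Groups of 2 or 3 libraries limit the precision of all fold changes.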
